A study of Mus musculus with 2 samples.

Results

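The Gata1 positive erythroid progenitors described here were 429 of 8085 kept cell barcodes from mouse bone marrow, 343 in the control (Ctrl) library and 86 in the Map4k4 conditional knockout (cKO) library. A barcode was kept with 200 to 9000 detected genes, at most 30% mitochondrial UMIs and at least 5000 UMIs, a UMI being 1 tagged RNA molecule. A kept barcode was a member if it held at least 1 UMI of Gata1, at least 5 UMIs of Car1, Car2 and Klf1 together, and less than 10% of its UMIs from the globin genes Hba-a1, Hba-a2, Hbb-bs and Hbb-bt. The members were thus selected on measured UMIs of these genes, so those values are given as a description and were not tested.

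The study profiled bone marrow with droplet-based 3′ single-cell RNA sequencing, to study what loss of the kinase MAP4K4 does to the formation of neutrophils. Each group was 1 library from mice of 13 to 14 weeks on a C57BL/6 background, with the number of mice behind a library not given in the sources used here. The cKO mice carried floxed Map4k4 alleles and Mx1-Cre, an interferon-inducible Cre that was switched on with poly I:C and acts in blood stem and progenitor cells but not in them alone. Control mice also carried Mx1-Cre, and the methods print their genotype as Mx1-Cre Map4k4-/-. Whether controls received poly I:C is not given in the sources used here. In both groups c-Kit+ cells enriched on magnetic beads were mixed 2 to 3 with marrow freed of red cells, so shares of barcodes depend on that mixture and the lysis step. With 1 library per group, the genotype and the library cannot be told apart, there is no replicate error and no test was made. Intervals below are exact 95% binomial (Clopper-Pearson) intervals and cover counting error only.

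Erythroid progenitors arise from progenitors shared with megakaryocytes and pass through burst-forming and colony-forming stages before they become erythroblasts. GATA1 and KLF1 switch on the erythroid programme in them, erythropoietin signals through its receptor, JAK2 and STAT5 to keep them alive, and transferrin receptor brings in the iron that haem synthesis uses. Haemoglobin and the proteins of the red-cell membrane accumulate late in this series, while GATA2 and KIT are lost on the way.

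The promoters of 5 genes that carry the identity of these cells are shown because GATA1 binds the letters AGATAA or TGATAA and KLF1 binds CACC-type motifs, searched here as CCNCNCCC. Gata1 and Klf1 encode the regulators, Epor the erythropoietin receptor, Ermap a membrane protein of erythroid cells and Rhd a Rh blood group protein. Each line holds the 250 bases before the start from RefSeq on GRCm38.p6, written 5′ to 3′ on the gene's strand, and capitals mark matches on either strand. The windows are chrX:7967911-7968160 on the minus strand for Gata1, chr8:84901732-84901981 on the plus strand for Klf1, chr9:21963577-21963826 on the minus strand for Epor, chr4:119189996-119190245 on the minus strand for Ermap and chr4:134864286-134864535 on the plus strand for Rhd.
Gata1: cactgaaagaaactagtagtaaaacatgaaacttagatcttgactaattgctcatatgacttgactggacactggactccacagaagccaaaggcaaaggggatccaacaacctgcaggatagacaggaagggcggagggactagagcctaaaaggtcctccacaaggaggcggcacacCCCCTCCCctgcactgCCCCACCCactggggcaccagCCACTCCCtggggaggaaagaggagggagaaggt
Klf1: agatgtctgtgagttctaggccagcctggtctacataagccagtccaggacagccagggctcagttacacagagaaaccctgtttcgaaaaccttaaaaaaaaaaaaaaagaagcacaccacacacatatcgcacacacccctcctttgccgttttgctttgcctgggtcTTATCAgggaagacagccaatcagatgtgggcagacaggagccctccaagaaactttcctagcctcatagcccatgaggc
Epor: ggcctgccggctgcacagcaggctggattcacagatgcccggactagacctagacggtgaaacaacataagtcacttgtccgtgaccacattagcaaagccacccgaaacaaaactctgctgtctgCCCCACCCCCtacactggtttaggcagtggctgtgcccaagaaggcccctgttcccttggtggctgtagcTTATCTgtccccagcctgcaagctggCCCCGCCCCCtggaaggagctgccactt
Ermap: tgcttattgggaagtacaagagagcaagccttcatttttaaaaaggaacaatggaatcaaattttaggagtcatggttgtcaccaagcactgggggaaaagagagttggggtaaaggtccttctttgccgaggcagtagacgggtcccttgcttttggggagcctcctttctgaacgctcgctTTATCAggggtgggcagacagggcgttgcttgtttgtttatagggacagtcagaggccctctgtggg
Rhd: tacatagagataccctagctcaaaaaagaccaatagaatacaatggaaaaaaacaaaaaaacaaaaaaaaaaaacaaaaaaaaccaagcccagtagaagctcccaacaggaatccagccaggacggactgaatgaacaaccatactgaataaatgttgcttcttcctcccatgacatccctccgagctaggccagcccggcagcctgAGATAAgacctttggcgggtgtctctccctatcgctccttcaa

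A GATA match began 80 bases before the start of Klf1, 54 before Epor, 67 before Ermap and 43 before Rhd. The Gata1 window held 3 CACC matches and no GATA match in these letters. The Epor window held 4 CACC matches, which overlap in pairs. Over all 32851 windows of the table, 16.6% held a GATA match, 45.9% a CACC match and 4.52% both. Of the 22 genes of a list of late erythroid genes (membrane, haem and enucleation genes), 14 had an entry and 9 of these held a GATA match, against 18.8% of all genes with an entry. Other lists, which share genes with that one, lay nearer to all genes, with 6 of 15 membrane and skeleton genes, 6 of 20 erythroid transcription factors and 3 of 12 haem synthesis genes holding a GATA match. A match describes the letters in the window and was not tested as a binding site.

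The control library held 10220 deposited barcodes with 71527701 UMIs, of which 4362 were kept, and the cKO library 6872 barcodes with 64393950 UMIs, of which 3723 were kept. Members made up 7.86% of kept barcodes in Ctrl (7.08 to 8.70) and 2.31% in cKO (1.85 to 2.85). Among kept barcodes with a UMI of Kit, the receptor used for the enrichment, they made up 11.7% in Ctrl (219 of 1876, 10.3 to 13.2) and 6.71% in cKO (58 of 865, 5.13 to 8.58). The share was lower in cKO under every one of the 13 other rules or filters tried, with Ctrl between 4.08% and 11.8% and cKO between 0.940% and 3.27%. Fewer progenitors and more of the other cells give the same change in a share and cannot be told apart here.

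**Figure D1:**
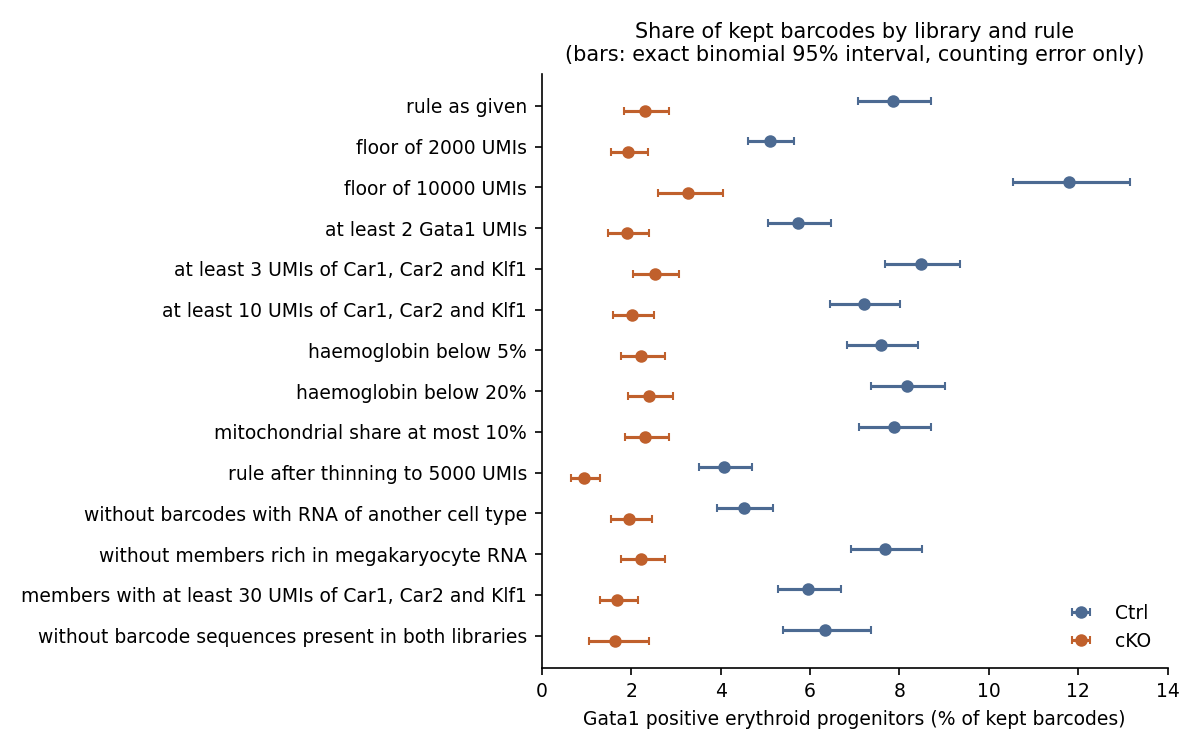
Share of kept barcodes that were Gata1 positive erythroid progenitors (x axis, percent) under the given rule and 13 alternatives (y axis), in Ctrl (blue) and cKO (orange), with exact 95% binomial intervals. The Ctrl point lies to the right of the cKO point in every line, at 7.86% and 2.31% under the given rule.

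Before the globin limit, 486 kept barcodes in Ctrl and 132 in cKO held a Gata1 UMI, and 359 and 89 of these also held the 5 UMIs of Car1, Car2 and Klf1. The globin limit then removed 16 barcodes in Ctrl and 3 in cKO. Those 16 held 10.3% to 35.5% globin UMIs, while the 12 Ctrl members nearest below the limit held 5.17% to 9.17%. At the lower edge of the second condition, 29 Ctrl and 11 cKO members held 5 to 9 UMIs of Car1, Car2 and Klf1, against 78 and 25 barcodes just outside with 1 to 4. Epor stood at 17.8 CPM (counts per 1000000 UMIs) in the Ctrl members just inside and at 7.91 CPM in the barcodes just outside.

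The 2 libraries shared 3010 barcode sequences, 43.8% of the cKO barcodes and 29.5% of the Ctrl barcodes. None of these pairs had identical profiles, and 5 of the shared sequences were members in both libraries. Of the members, 186 in Ctrl (54.2%) and 61 in cKO (70.9%) carried a sequence that the other library also held. Sharing was more frequent in deeper barcodes, from 8.97% below 1000 UMIs to 54.8% at 20000 and over in Ctrl and from 17.6% to 67.1% in cKO, and its part in the results was not tested beyond leaving these barcodes out. Without them 157 Ctrl and 25 cKO members were left, at 6.33% (5.40 to 7.36) and 1.63% (1.06 to 2.40) of kept barcodes. Members were deeply covered, with a median of 19254 UMIs and 4490 genes in Ctrl and 30589.5 UMIs and 5449.5 genes in cKO. The other kept barcodes had medians of 10478 and 12335 UMIs. After thinning every barcode to 5000 UMIs, a median of 2056 genes remained per Ctrl member and 1965.5 per cKO member, so the larger number of genes in cKO was not seen at equal depth. Neutrophil-rich barcodes, those with at least 5% of UMIs from S100a8 and S100a9, gave 1505 and 1287 genes at that depth.

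Gata1, the regulator that names the cells, stood at 144 CPM in Ctrl members and 142 CPM in cKO members. A member held a median of 3 Gata1 UMIs in Ctrl and 4 in cKO. Car1, a carbonic anhydrase of the erythroid lineage, stood at 1861 and 2424 CPM, and Car2, a second carbonic anhydrase, at 2527 and 2070 CPM. Klf1, the erythroid Krüppel-like factor, stood at 207 and 246 CPM. Blvrb, a flavin and biliverdin reductase, was no part of the rule and stood at 544 CPM in Ctrl members and 703 in cKO members, against 23.4 and 15.8 CPM in the other kept barcodes. After thinning to 5000 UMIs, Blvrb was seen in 77.0% of Ctrl members (72.1 to 81.3) and 72.1% of cKO members (61.4 to 81.2), against 6.37% and 5.77% of neutrophil-rich barcodes.

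The label therefore held for most members, but not for all of them. In the 260 Ctrl and 63 cKO members with at least 30 UMIs of Car1, Car2 and Klf1, at least 3 of the 5 genes Blvrb, Epor, Ermap, Hemgn and Rhag were seen in 252 and 60. That was so in 22 of 54 Ctrl and 4 of 12 cKO members with 10 to 29 UMIs, and in 5 of 29 and 1 of 11 with 5 to 9. These groups differed in depth as well. The median was 24587 total UMIs in Ctrl and 42928 in cKO in the first group, against 9475 and 20922 in the last. The part of depth in these counts was not tested. The members with 5 to 9 UMIs also held more Gata2, at 329 CPM in Ctrl and 294 CPM in cKO, against 24.4 and 50.6 CPM in the members with at least 30 UMIs. Cpa3, a mast cell and basophil protease, stood at 201 and 238 CPM in the members with 5 to 9 UMIs and at 5.51 and 0.733 CPM in those with at least 30 UMIs.

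A few members carried the RNA of megakaryocytes, the platelet-forming cells that also express Gata1. In 8 Ctrl and 3 cKO members at least 1% of UMIs came from a list of megakaryocyte and platelet genes. Pf4, platelet factor 4, stood at 15335 CPM in those 8 and 14437 CPM in those 3, against 26.4 and 12.2 CPM in the other members. Klf1 had no UMI in any of the 11, and their Car2 level was 281 and 186 CPM. These 11 barcodes go against the erythroid label, and leaving them out gave shares of 7.68% in Ctrl and 2.23% in cKO.

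Against the other kept barcodes, 1879 of 13397 genes were at least 2-fold higher in members of both libraries (14.0% of genes compared) and 2586 were at least 2-fold lower (19.3%). Since expression chose the members, these counts describe them and nothing is read from the percentages. The 15 genes outside the rule with the highest ratio in both libraries were Sphk1, Paqr9, Slc25a21, Tmem56, Slc38a5, Asb17os, Myh10, Ermap, Atp1b2, Mt2, Rhd, Add2, Abcb4, Epdr1 and Cldn13. Sphk1 encodes the sphingosine kinase that makes sphingosine 1-phosphate, and it stood at 111 CPM in Ctrl members and 93.7 CPM in cKO members, against 1.60 and 0.16 CPM elsewhere. Slc38a5 (a glutamine transporter) stood at 117 and 97.2 CPM against 2.19 and 0.52 CPM. Mt2, a metal-binding metallothionein, stood at 323 and 608 CPM against 7.74 and 4.52 CPM.

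Parts of the red-cell membrane and its skeleton were among these genes. Ermap stood at 477 and 290 CPM in Ctrl and cKO members against 9.61 and 1.62 CPM in the other kept barcodes. Rhd stood at 216 CPM in members of both libraries against 5.57 and 1.53 CPM, and Add2, the beta subunit of adducin in the spectrin skeleton, at 126 CPM in both against 3.27 and 1.09 CPM. Of 22 genes of a membrane and skeleton list, 19 were at least 2-fold higher in members of both libraries and none at least 2-fold lower. Over all genes the shares were 14.0% and 19.3%. The corresponding counts were 11 and 0 of 22 erythroid transcription factors (Gata1 and Klf1, which the rule required or counted, among the 11), 11 and 1 of 15 haem synthesis genes, 12 and 0 of 20 ribosome biogenesis genes, and 0 and 15 of 15 neutrophil and granule genes.

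**Figure D2:**
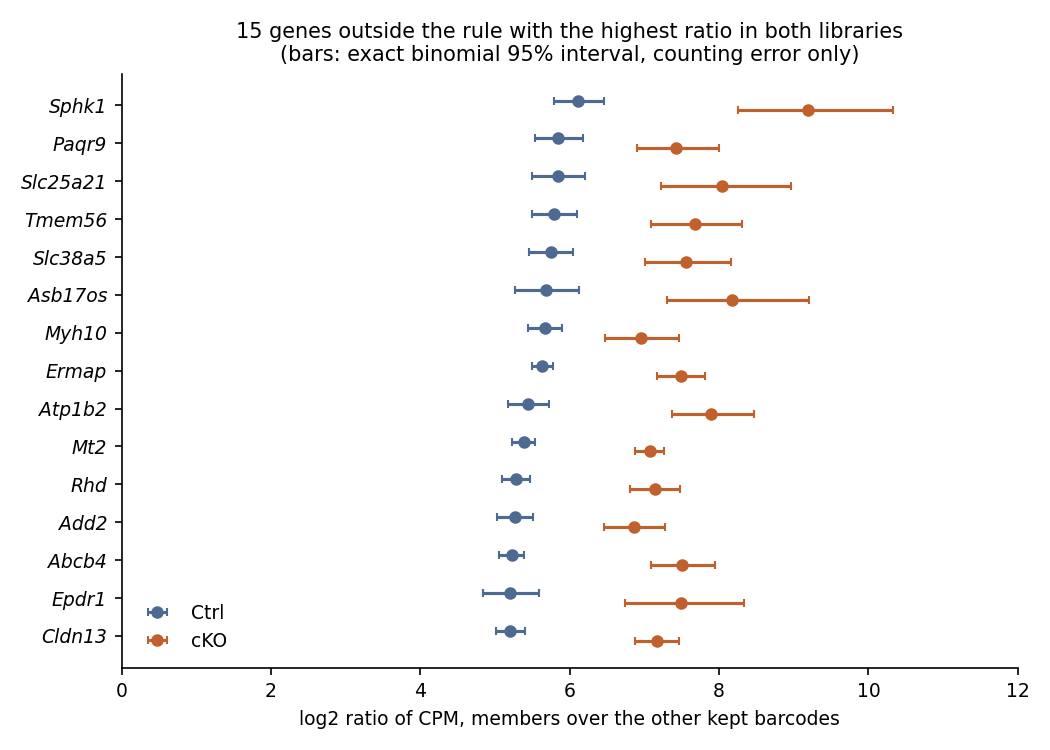
Log2 ratio of CPM in members over the other kept barcodes (x axis) for the 15 named genes outside the rule (y axis), in Ctrl (blue) and cKO (orange), with exact 95% binomial intervals that cover counting error only. The Ctrl ratios lie between 5.20 and 6.12 and the cKO ratios between 6.86 and 9.19, with the cKO point to the right for each gene.

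The ratio was higher in cKO for each of these genes, and the level in the other kept barcodes was lower in cKO for each of them. Stat5a, one of the transcription factors below the erythropoietin receptor, had a log2 ratio of members over the other kept barcodes of 1.17 in Ctrl and 1.93 in cKO. Map4k4 went the other way, at 21.8 CPM in Ctrl members and 20.7 CPM in cKO members against 62.4 and 63.8 CPM in the other kept barcodes.

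To order the members, the UMIs of a late erythroid list minus those of an early progenitor list were counted in each barcode thinned to 5000 UMIs, and the 429 members of both libraries were cut into 3 ranges of nearly equal size. The ranges are not cell types, and 24 and 22 members lay within 1 UMI of the lower and upper limits (scores of -1 and 10). The early range held 105 of 343 Ctrl members (30.6%, 25.8 to 35.8) and 38 of 86 cKO members (44.2%, 33.5 to 55.3). The middle range held 32.4% of Ctrl members (27.4 to 37.6) and 37.2% of cKO members (27.0 to 48.3). The late range held 127 Ctrl members (37.0%, 31.9 to 42.4) and 16 cKO members (18.6%, 11.0 to 28.4). These intervals are over the barcodes of 1 library each, and the shares were not tested against each other. Ordering by globin share instead gave late shares of 35.9% (30.8 to 41.2) and 23.3% (14.8 to 33.6), whose intervals overlap, and put 60.5% of cKO members in the early range. The other kept barcodes had a median globin share of 0.0230% in Ctrl and 0% in cKO. The part of that library difference in the globin order was not tested. Without the barcode sequences found in both libraries the late shares were 36.9% (29.4 to 45.0) and 16.0% (4.54 to 36.1), with overlapping intervals.

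Several genes that did not set the order were higher toward its late end in both libraries. Tfrc, the transferrin receptor, stood at 98.5, 339 and 633 CPM in Ctrl and at 74.9, 375 and 725 CPM in cKO. Uros, a haem pathway enzyme, went from 8.52 to 110 CPM between the early and late ranges in Ctrl and from 10.7 to 117 CPM in cKO. Epor was nearly as high in the middle as in the late range, at 55.9, 99.3 and 110 CPM in Ctrl and 51.1, 128 and 139 CPM in cKO. Klf1 stood at 93.7, 196 and 291 CPM in Ctrl and at 107, 301 and 284 CPM in cKO. Gata1, required in every member, stood at 127, 123 and 178 CPM in Ctrl and 115, 143 and 173 CPM in cKO.

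Among 1666 genes that did not set the order, had a UMI in both ranges and reached 100 CPM in either of them in both libraries, Hbb-bt, Hbb-bs and Hba-a1, globins that the rule capped, had the highest ratios of late over early, taking the smaller of the 2 libraries. Hbb-bs, an adult beta globin, stood at 72.4 CPM in the early and 5323 CPM in the late range of Ctrl, and at 11.9 and 5179 CPM in cKO. Besides the globins, genes with the highest ratio of late over early in both libraries included Btnl10, Tmem56, Cldn13, Hebp1, Ctse, Mgst3, Uros, Nxpe2, Lmna and Ubac1. Hebp1, a haem-binding protein, stood at 25.6 and 388 CPM in the early and late ranges of Ctrl and at 11.9 and 327 CPM in those of cKO. Ctse, the aspartic protease cathepsin E, stood at 45.3 and 560 CPM in Ctrl and at 14.3 and 471 CPM in cKO.

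Genes with the lowest ratio of late over early in both libraries included Pf4, Itga2b, Mef2c, Plek, Rgs18, Apoe, Cd9, Fosb, S100a10, H2-Q7, Fli1, Nrgn, Treml2 and Celf2. The early range also contained all 11 members rich in megakaryocyte RNA. Pf4 stood at 2979 CPM in the early range of Ctrl and at 92.6 CPM without those members, so its level there came mostly from them. Itga2b went from 249.8 to 78.2 CPM without them, Plek from 268 to 76.2 CPM and Cd9 from 239 to 63.1 CPM. Apoe, apolipoprotein E, stood at 490.5 CPM in the early and 16.7 CPM in the late range of Ctrl and at 822 and 4.37 CPM in cKO. Without the megakaryocyte-rich members Apoe still stood at 591 CPM in the early range of Ctrl. Map4k4 was also higher in the early range, at 45.3, 15.3 and 13.6 CPM in Ctrl and 51.1, 8.64 and 11.7 CPM in cKO. Its early level without the megakaryocyte-rich members was not examined.

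**Figure D3:**
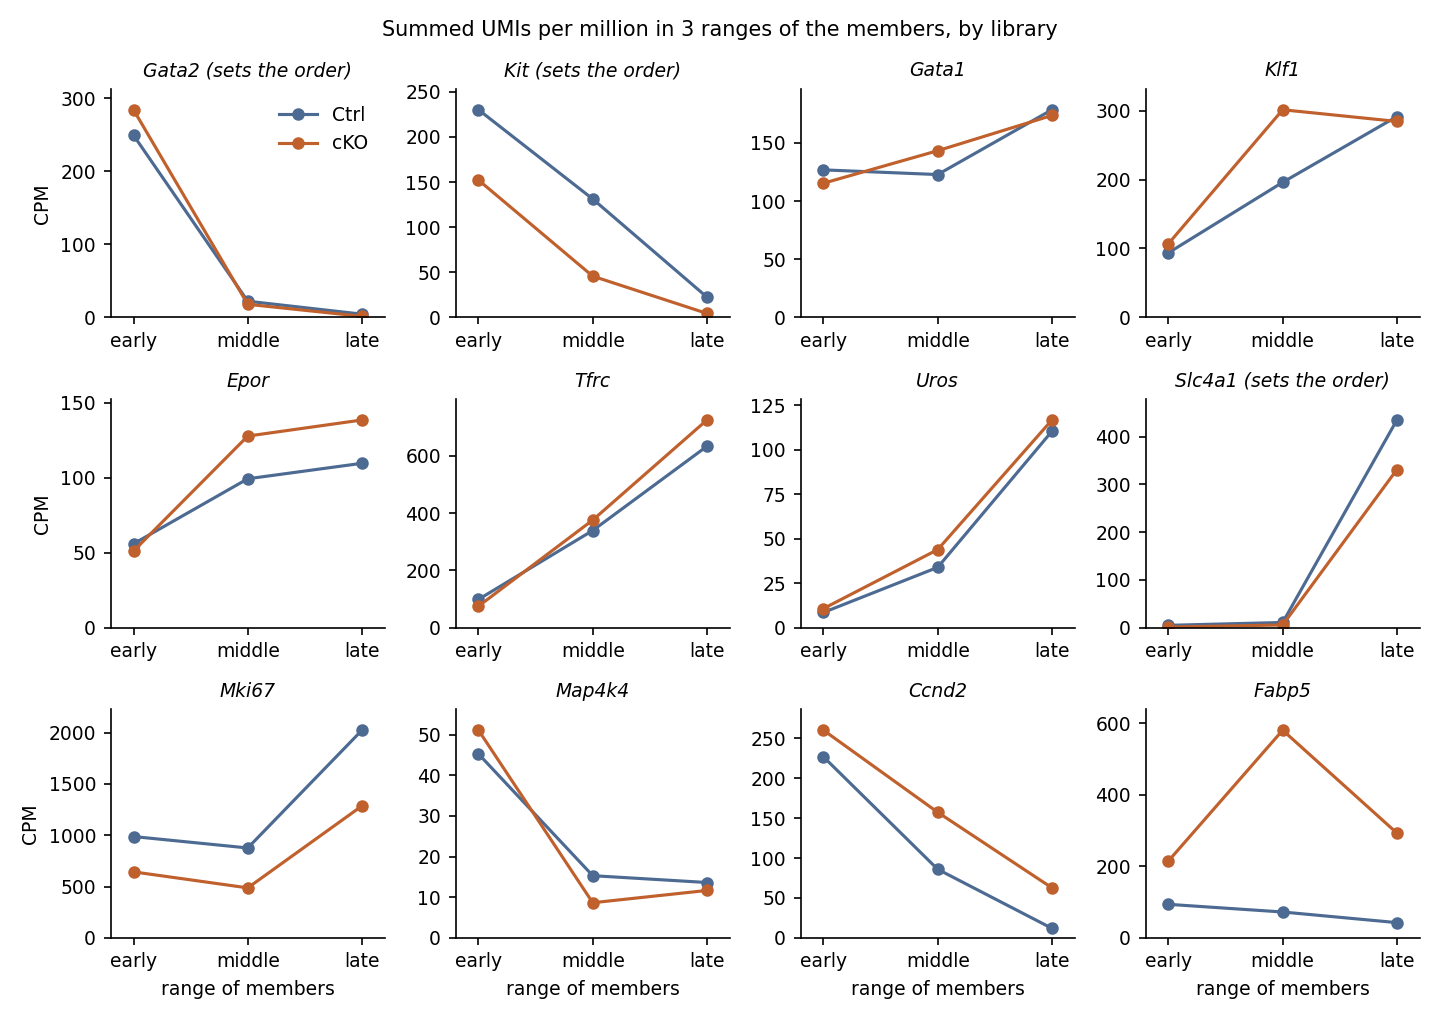
Level of 12 genes (y axes, CPM from summed UMIs) in the early, middle and late ranges of the members (x axes), in Ctrl (blue) and cKO (orange), 1 value per range and library. Gata2, Kit and Slc4a1 helped to set the order, Tfrc climbs along it in both libraries, Map4k4 is highest in the early range, and Fabp5 is higher in cKO in all 3 ranges. The early range includes all members rich in megakaryocyte RNA.

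Between the libraries, members were compared at 9214 genes with at least 50 UMIs in the 2 sums, which held 7886610 UMIs in Ctrl and 3147074 in cKO. Of these genes 49 were at least 2-fold higher in cKO members (0.532%) and 372 at least 2-fold lower (4.04%), or 4.57% in either direction. The median log2 ratio of cKO over Ctrl was -0.15 in members and -0.53 in the other kept barcodes. Median-of-ratios scaling shifts each ratio in members by 0.12 and gave 82 genes higher and 248 lower, so that 24.8% of the called genes were higher, against 11.6% with total UMIs. Averaging the proportions of single barcodes gave 117 higher and 384 lower.

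Map4k4, the deleted kinase, had 172 UMIs in Ctrl members and 65 in cKO members, at 21.8 and 20.7 CPM. Its log2 ratio was -0.08 (-0.51 to 0.34), and in the other kept barcodes it was 0.03. The exons removed by Cre are not given in the sources used here, and a 3′ count outside the deleted part is no check of the deletion. The paper reports, from RT-PCR, that stem and progenitor cells lost the Map4k4 transcript after poly I:C. After thinning, Map4k4 was seen in 9.91% of Ctrl members and 18.6% of cKO members, below the 18.3% and 27.8% of neutrophil-rich barcodes. The interval of the ratio does not reach a 2-fold difference in either direction.

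The highest ratio among genes with at least 100 CPM in either library was that of Fabp5, which encodes a fatty acid binding protein. It stood at 66.3 CPM in Ctrl members and 420 CPM in cKO members, a log2 ratio of 2.66 (2.52 to 2.81), against 68.6 and 81.0 CPM in the other kept barcodes (0.24). Of the 86 cKO members 80 held a Fabp5 UMI, and the member with most held 8.84% of them, so no single barcode carried the difference. After thinning, 25.7% of Ctrl members (21.1 to 30.6) and 70.9% of cKO members (60.1 to 80.2) held a Fabp5 UMI, against 4.64% and 21.0% of neutrophil-rich barcodes. The ratio was 1.20 in the early, 3.01 in the middle and 2.78 in the late range. It stayed between 1.20 and 3.06 in the 21 other settings.

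Several other genes with different roles were about 2-fold higher in cKO members. Phb, the prohibitin of the mitochondrial inner membrane, stood at 80.0 CPM in Ctrl and 164 CPM in cKO (1.04, 0.86 to 1.21), and Slc25a4, an ADP/ATP carrier, at 67.8 and 137 CPM (1.01, 0.83 to 1.20). Txnl4a, a splicing factor, stood at 49.6 and 100.1 CPM (1.01) and Gstp1, a glutathione transferase, at 77.6 and 156 CPM. In the other kept barcodes the ratios of Phb, Slc25a4, Txnl4a and Gstp1 were -0.16, -0.51, -0.05 and 0.26. In the early range of the members, Slc25a4, Txnl4a and Gstp1 had ratios of only 0.38, 0.48 and 0.49. Phb was at 0.86 or more in all 21 other settings. Nme2, Ubb and Mt2 followed with ratios of 0.95, 0.95 and 0.91, but that of Mt2 was -0.09 in the early range, against 0.80 and 1.16 in the middle and late ones. Outside the members the ratios of Nme2, Ubb and Mt2 were -0.04, 0.66 and -0.77. Ifitm1, an interferon-inducible membrane protein, had a ratio of 1.43 in members, from 41.0 to 110 CPM, and of 2.74 in the other kept barcodes. A single cKO member held 27.4% of its UMIs, and in the late range the ratio was -0.28.

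The lowest ratios among genes with at least 100 CPM in either library were those of Igha and Igkc, genes of plasma cells. Igha, an immunoglobulin heavy chain, stood at 406 CPM in Ctrl members and 25.7 CPM in cKO members (-3.98), and Igkc, the kappa light chain, at 490 and 67.0 CPM (-2.87). Igha was seen in 99.7% of Ctrl members and 47.7% of cKO members. After thinning it was seen in 82.5% and 10.5% of members and in 75.1% and 7.58% of neutrophil-rich barcodes, which also should lack it. The source of the Igha UMIs in either kind of barcode was not tested. Mpo, the myeloperoxidase of granulocyte progenitors, stood at 408 and 131 CPM (-1.64), and was seen after thinning in 73.5% and 41.9% of members against 72.3% and 45.5% of neutrophil-rich barcodes. Neutrophil-rich barcodes belong to the lineage that makes Mpo and are no background reference for it, and the part of free RNA in these ratios was not tested.

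Further genes at the low end were mt-Nd4l (a mitochondrially encoded subunit of complex I, -1.72), Kcnq1ot1 and Malat1 (nuclear RNAs, -1.46 and -1.32), Slc4a1 (the band 3 anion exchanger, -1.15), Erbin (-1.12) and Zeb2 (-1.11). Malat1 stood at 2800 CPM in Ctrl and 1124 CPM in cKO members, and its ratio of -1.38 in the other kept barcodes was as low. The list of nuclear-retained RNAs had a median of -0.74 in members and -1.05 elsewhere. Ribosomal protein genes gave 22.8% of UMIs in Ctrl members and 26.5% in cKO members, and mitochondrial genes 2.39% and 2.07%. RNA quality and capture can move these classes, and their part in the other differences was not tested.

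**Figure D4:**
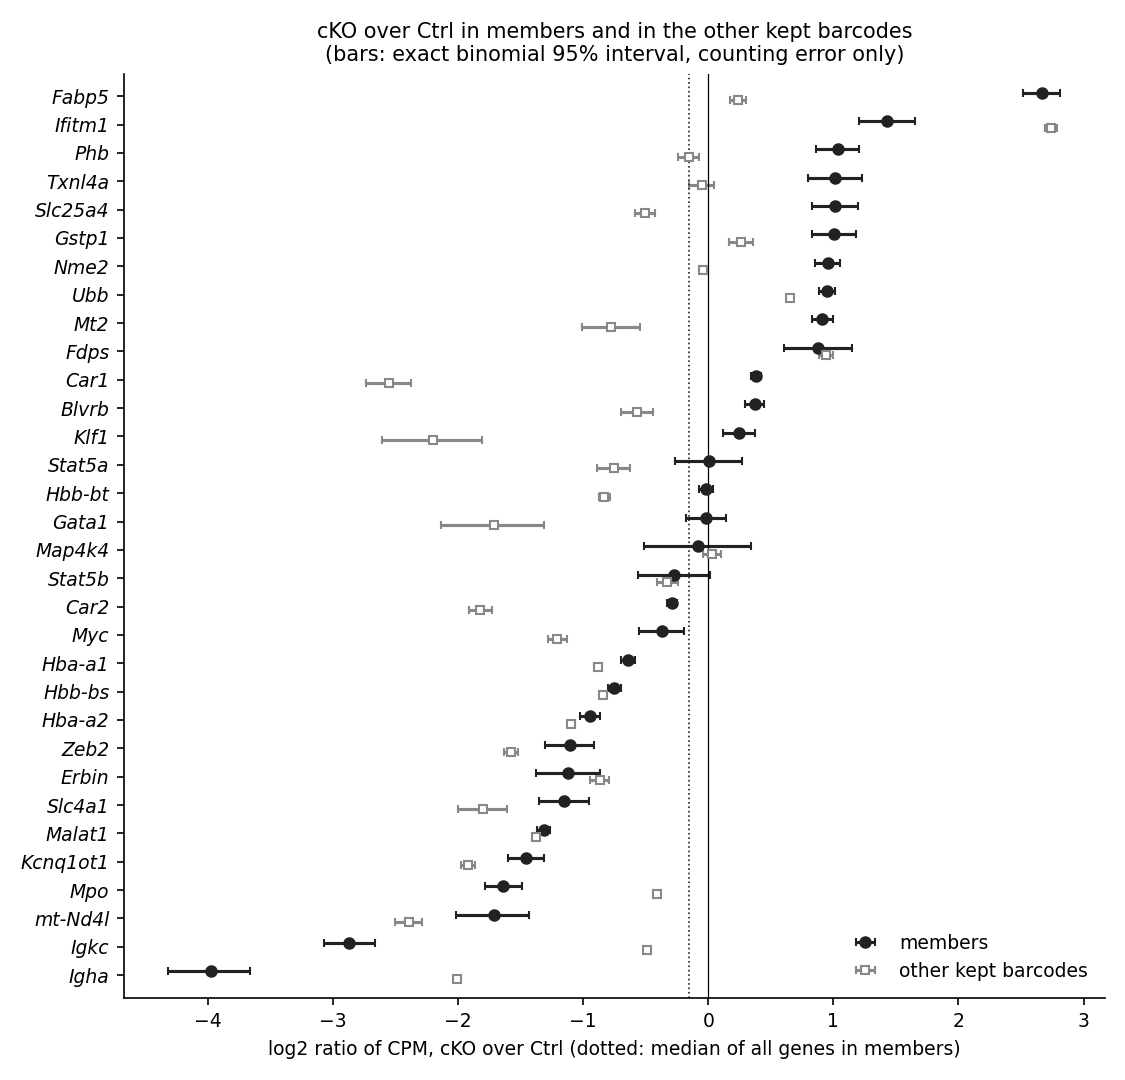
Log2 ratio of CPM, cKO over Ctrl (x axis), for named genes (y axis) in members (filled circles) and in the other kept barcodes (open squares), with exact 95% binomial intervals that cover counting error only. Fabp5 (2.66 in members, 0.24 elsewhere) leads in members, Malat1 is low in both, and the dotted line marks the median of all genes in members at -0.15.

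Among the 22 erythroid transcription factors, none was 2-fold higher or lower in cKO members, beside 0.532% and 4.04% of all genes. Their median ratio was -0.17 beside -0.15 for all genes. Gata1 and Klf1, whose UMIs the rule used to choose members, had ratios of -0.02 (-0.18 to 0.14) and 0.25 (0.12 to 0.37). Gata2, the factor that GATA1 replaces, stood at 69.6 CPM in Ctrl and 85.5 CPM in cKO (0.30, 0.08 to 0.51), but its ratio was 0.19 in the early, -0.31 in the middle and -1.60 in the late range, where cKO members held 1 UMI, and 1.05 in members with at least 30 UMIs of Car1, Car2 and Klf1. Sox6, a factor that promotes erythroid maturation and globin silencing, stood at 63.4 and 34.9 CPM (-0.86), but its ratio was 0.71 in the early, 0.39 in the middle and -0.70 in the late range, so its direction turned with the range. E2f2, a cell cycle factor of erythroblasts, stood at 72.9 and 40.7 CPM (-0.84), and Myb, a progenitor factor, at 368 and 222 CPM (-0.72, with -0.39, -1.59 and -1.81 in the 3 ranges). Gata2 and Myb helped to set the order, so nothing is read from their ratios within ranges. Cited4 had the highest ratio of this list, at 54.9 and 85.8 CPM (0.64), with -0.49, 0.96 and 0.54 in the 3 ranges.

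In the erythropoietin, KIT and STAT5 pathway, the receptor Epor stood at 92.8 CPM in Ctrl and 110 CPM in cKO members (0.24, 0.05 to 0.43). Its kinase Jak2 stood at 65.3 and 38.1 CPM (-0.78), and Kit, the stem cell factor receptor, at 114 and 65.1 CPM (-0.81). The ratio of Kit was -0.60, -1.52 and -2.36 in the early, middle and late ranges, with 3 UMIs in the late cKO members. Kit helped to set the order, so nothing is read from these range values. Stat5a was at 51.9 and 52.1 CPM (0.01) and Stat5b at 52.9 and 43.8 CPM (-0.27, -0.56 to 0.01). Of 14 genes compared in this list, 1 was at least 2-fold higher and none at least 2-fold lower, beside 0.532% and 4.04% of all genes, with a median of -0.20. The higher one was Erfe, erythroferrone, a hormone that erythroblasts secrete under erythropoietin, with 19 UMIs in 16 of 343 Ctrl members and 40 UMIs in 22 of 86 cKO members (2.41 and 12.7 CPM, 2.40, 1.58 to 3.27). Cish, a STAT5 target that dampens cytokine signalling, had too few UMIs for the comparison of all genes, with 14 in 14 Ctrl members and 31 in 22 cKO members. Myc, a growth regulator, stood at 136 and 105 CPM (-0.37).

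In haem synthesis, none of 15 genes was at least 2-fold higher in cKO members and 2 were lower, beside 0.532% and 4.04% of all genes, with a median of -0.15. These were Alas2, the erythroid enzyme of the first step, at 27.5 and 11.8 CPM (-1.23, -1.77 to -0.72), and Abcb10, a mitochondrial transporter, at 133 and 65.5 CPM (-1.02), which did not reach 2-fold within the early, middle or late range (-0.43, -0.72 and -0.64). Alas2 was seen in 82 of 343 Ctrl and 13 of 86 cKO members. Nearly all of its level came from the late range, where it stood at 69.1 CPM in Ctrl and 48.1 CPM in cKO. Alas2 helped to set the order, so nothing is read from its place in that range. The middle steps were closer to each other, with Alad at 246 and 283 CPM (0.20), Urod at 165 and 151 CPM (-0.13) and Cpox at 413 and 373 CPM (-0.15, but 0.24 in the middle range). Fech, which inserts the iron, stood at 167 and 111 CPM (-0.59).

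None of 17 iron genes was 2-fold higher or lower (median -0.17), beside 0.532% and 4.04% of all genes. Tfrc stood at 391 and 371 CPM (-0.08, with -0.40, 0.15 and 0.20 in the 3 ranges), Slc25a37, the mitochondrial iron importer mitoferrin 1, at 111 and 69.0 CPM (-0.69), and Ftl1, ferritin light chain, at 975 and 1415 CPM (0.54). The globins, limited by the rule, gave 0.565% of the UMIs of Ctrl members and 0.379% of those of cKO members, and 0.206% and 0.111% of those of the other kept barcodes. Hbb-bt had a ratio of -0.02 while Hba-a1, Hbb-bs and Hba-a2 had ratios of -0.64, -0.75 and -0.95, and all 4 were lower in the other kept barcodes too (-1.10 to -0.83). Within the early, middle and late ranges the ratio of Hbb-bt was -1.82, 1.48 and 0.51, that of Hba-a1 -2.45, 0.44 and -0.02, that of Hbb-bs -2.61, -0.03 and -0.04, and that of Hba-a2 -4.61, -0.84 and -0.18. The direction for Hbb-bt and Hba-a1 thus depended on the range. Early members had a median globin share of 0.0318% in Ctrl and 0% in cKO, against 0.0230% and 0% in the other kept barcodes. The part of free RNA in the early globin ratios was not tested. Single ranges also turned the direction of smaller ratios, for Map4k4 and Stat5b in the early range (0.18 and 0.13), for Epor and Alad there (-0.13 and -0.04), for Gata1, Urod, Fech and Slc25a37 in the middle range (0.22, 0.18, 0.05 and 0.03) and for Klf1 in the late range (-0.04). Of these, Fech and Slc25a37 helped to set the order, so nothing is read from their turn.

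Of 21 membrane and skeleton genes compared, none was at least 2-fold higher in cKO members and 3 were lower, beside 0.532% and 4.04% of all genes, with a median of -0.32. Among the 3, Slc4a1 stood at 167 and 75.3 CPM and Tmod1, an actin-capping protein, at 11.7 and 4.77 CPM. Rhag, Rhd and Add2 had ratios of 0.10, 0.00 and 0.00 over all members, but of -0.97, -1.18 and -1.70 in the early range, where cKO members held 8, 15 and 8 UMIs, and of 0.47, 0.41 and 0.25 in the middle range. Rhag and Rhd, unlike Add2, helped to set the order, so nothing is read from their ratios within ranges. Icam4, an adhesion molecule of erythroid cells, had the highest ratio of the list (0.51). Slc4a1, which also helped to set the order, was seen in 33.8% of Ctrl and 17.4% of cKO members, and within the late range it stood at 435 and 331 CPM. Without the barcode sequences found in both libraries the ratio of Slc4a1 was -2.11 and that of Alas2 -2.63. The whole late erythroid list, which helped to set the order, had a median of -0.58 with none of 20 genes at least 2-fold higher and 5 lower (among them Alas2, Slc4a1, Trim10 and Tmcc2), beside 0.532% and 4.04% of all genes. Within the early, middle and late ranges its median was -0.58, 0.12 and -0.37, over 7, 16 and 20 genes. Nothing is read from these medians, since the list's own UMIs helped to cut the ranges.

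Carbonic anhydrases and redox enzymes lay above the median of all genes, at 0.28 over 15 genes. None was 2-fold higher or lower, beside 0.532% and 4.04% of all genes. Car1 had a ratio of 0.38 and Car2 of -0.29, so the 2 enzymes of the rule differed in direction. Prdx2, the peroxiredoxin of red cells, stood at 870 and 1121 CPM (0.37), Gpx4, a lipid peroxidase, at 486 and 756 CPM (0.64), and Sod1, superoxide dismutase, at 670 and 430 CPM (-0.64). Glycolysis genes had a median of 0.29 over 14 genes, again with none 2-fold higher or lower, beside the same shares of all genes. Ldha, lactate dehydrogenase, stood at 307 and 533 CPM (0.80), Tpi1 at 173 and 289 CPM (0.74) and Gapdh at 704 and 1106 CPM (0.65), while Pkm stood at 71.3 and 66.7 CPM. In the other kept barcodes the glycolysis list had a median of 0.20, and Gapdh and Ldha had ratios of 0.71 and 0.51. Both lists lay above the median of all genes in all 21 other settings.

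Of 25 S phase genes 11 were at least 2-fold higher in members than in the other kept barcodes of both libraries, and of 25 G2/M genes 3. None was lower in either list, beside 14.0% of all genes that were higher and 19.3% that were lower. The G2/M count lay near the share of all genes that were higher. Per 5000 UMIs a Ctrl member held a median of 27 UMIs of S phase genes and a cKO member also 27, against 10 and 2 in the other kept barcodes. For G2/M genes the medians were 28 and 20, against 10 and 2. The G2/M list had a median ratio of -0.40 over 25 genes, with 1 at least 2-fold lower, beside 4.04% of all genes (the mitotic kinesin Kif23, at 69.4 and 34.6 CPM), and the S phase list of -0.13 with none. Mki67, a marker of cycling cells, stood at 987, 876 and 2024 CPM in the 3 ranges of Ctrl and 643, 487 and 1286 CPM in those of cKO. Ccnd2, cyclin D2, stood at 91.9 and 164 CPM (0.84) in members, while its ratio in the other kept barcodes was -1.42. Its ratio was 0.20 in the early range and 2.40 in the late range, where Ctrl members held 11.9 CPM and cKO members 62.7 CPM. Ribosome biogenesis genes had a median of 0.04 over 20 genes. None was 2-fold higher or lower, beside 0.532% and 4.04% of all genes.

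Fdps, the farnesyl diphosphate synthase of isoprenoid synthesis, stood at 33.9 CPM in Ctrl members and 62.3 CPM in cKO members (0.88, 0.61 to 1.15), and its ratio of 0.94 in the other kept barcodes was of similar size. The sterol and isoprenoid list as a whole had a median of -0.07. None of its 19 genes was 2-fold higher or lower, beside 0.532% and 4.04% of all genes. In the interferon-stimulated list 1 of 15 genes was at least 2-fold higher (Ifitm1) and 5 at least 2-fold lower (Isg15, Irf7, Oasl2, Ifi27l2a and Xaf1), beside 0.532% and 4.04% of all genes, with a median of -0.60. Isg15, a ubiquitin-like interferon product, stood at 21.9 and 7.94 CPM (-1.47), while Ifitm2 stood at 252 and 419 CPM (0.73) and Ifitm3 at 158 and 224 CPM (0.51).

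RNA of other marrow cells was present in members and differed between the libraries. The neutrophil and granule list gave 1.18% of UMIs in Ctrl members and 1.04% in cKO members, against 17.1% and 28.4% elsewhere, and 146 of 343 Ctrl and 13 of 86 cKO members held at least 1% from it. S100a9, which encodes a subunit of calprotectin, was its most abundant gene in both. The B and plasma cell list gave 0.104% and 0.0115% of UMIs, with Igkc as its most abundant gene and 7 of 13 genes at 0 in cKO members. Of its 9 genes compared, 8 were at least 2-fold lower in cKO, beside 4.04% of all genes, and its median was -3.16 with Cd79a, Vpreb3 and Ebf1, which had no UMI in cKO, set at a floor of 3 UMIs over the group. The monocyte and macrophage list gave 0.028% and 0.013% of UMIs, with a median of -2.26. Of its 9 genes compared, 8 were at least 2-fold lower, beside 4.04% of all genes. The part of such RNA in the ratios of erythroid genes was not tested, and without members that held at least 1% from another type's list 197 Ctrl and 73 cKO members, 43 higher genes and 254 lower genes were left.

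**Figure D5:**
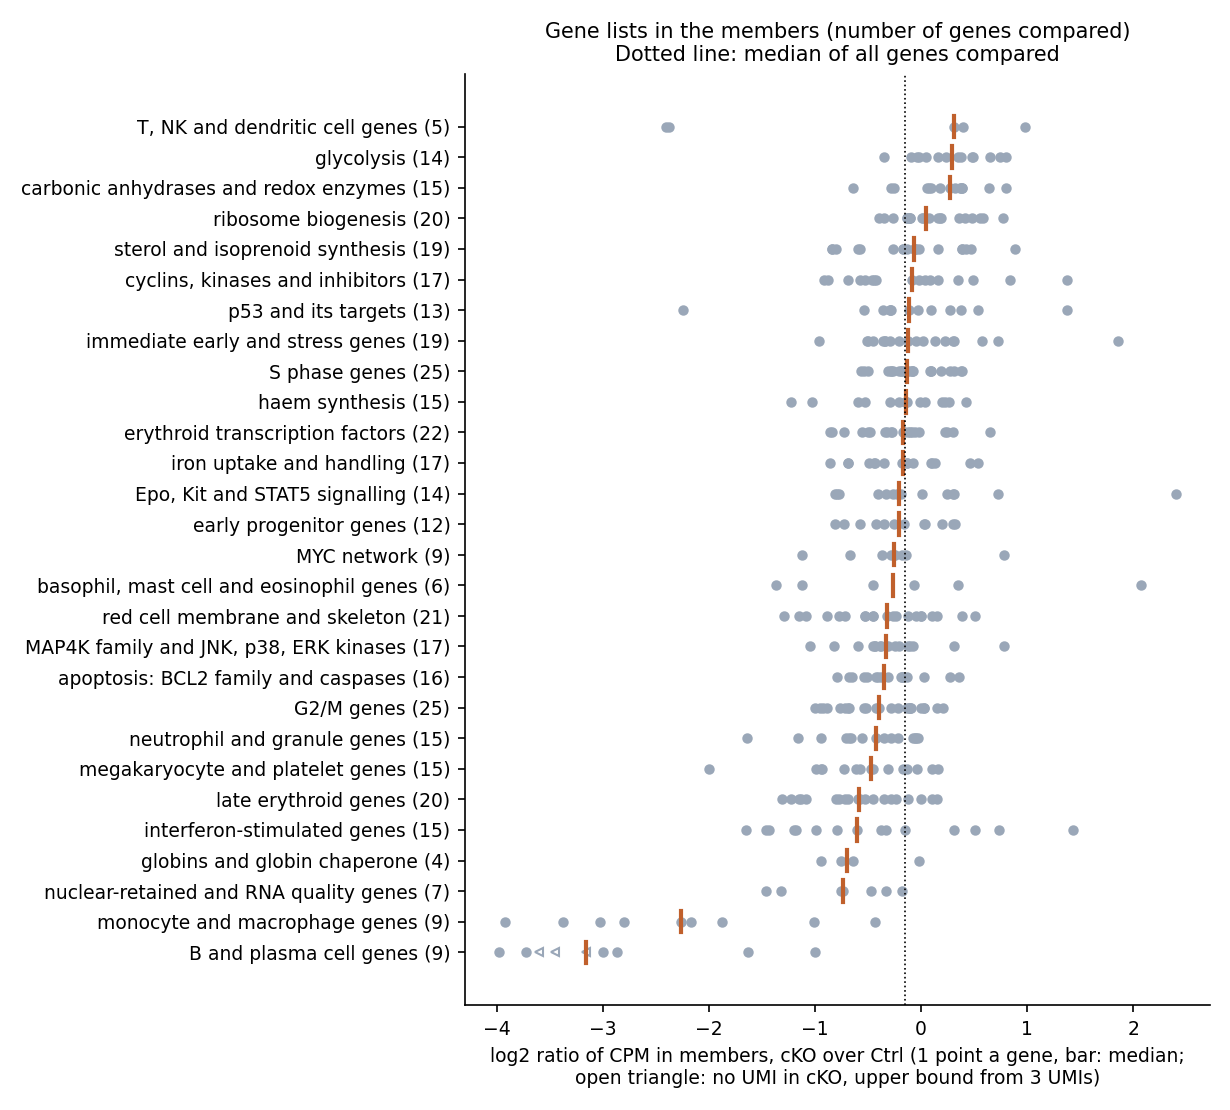
Log2 ratio of CPM in members, cKO over Ctrl (x axis), for each compared gene (points) of the gene lists (y axis, number of genes in brackets), with list medians as bars and the median of all genes as a dotted line. Open triangles are genes with no UMI in cKO at their bound from 3 UMIs. Glycolysis (0.29) and carbonic anhydrase and redox genes (0.28) lie to the right, late erythroid genes (-0.58) and B and plasma cell genes (-3.16) to the left.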

How the data were processed

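Droplet 3′ single-cell RNA libraries of 1 Ctrl and 1 cKO sample of mouse bone marrow were analysed. Unnormalized UMI counts for 32285 genes in each barcode were deposited, and the submitters' processing notes name Cell Ranger 5.0.0 and the mm10 build. The members, gene lists and comparisons were chosen with earlier results of these data known.

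The barcode rule was applied to the deposited counts, and no doublet caller was run. Doublets and free RNA were followed through marker lists of other cell types. UMIs were summed over members or over the other kept barcodes of a library and scaled to CPM (counts per 1000000). Ratios of members over the rest used genes with at least 10 UMIs in the sums, and ratios of cKO over Ctrl genes with at least 50. A gene was called at a fold of 2, and intervals are exact binomial at 95%. Detection was compared after thinning each barcode to 5000 UMIs. Where 38 symbols had 2 identifiers, the one with more UMIs was used.

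Genes were named by a fixed rule, namely the genes of the gate, Blvrb, Map4k4, Stat5a, Stat5b, Myc and Fdps, the 15 highest members-over-rest ratios (at least 50 CPM), the 10 highest and 10 lowest ratios of cKO over Ctrl (at least 100 CPM) and the leading or called genes of 31 lists. A few genes that meet the rule are not reported here. Genes named beside them, such as Cish, Ccnd2, Sox6 and E2f2, and the 5 promoters, were chosen after their values were seen. The calculations were tested on simulated data. They ran under Python 3.11.15 (matplotlib 3.10.9, pandas 2.3.3, scipy 1.17.1 and numpy 2.4.6).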

Additional observations from a re-analysis of the deposited data

Results flagged for a closer look

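Outside the kept barcodes, 35 Ctrl barcodes below the floor of 5000 UMIs passed the other parts of the rule, 0.625% of the 5603 barcodes below the floor that met the limits on detected genes and mitochondrial UMIs, and 5 cKO barcodes did, 0.167% of 2995. They are listed because they exceed the limit that a count of 0 would allow (3 barcodes, 0.0535% and 0.100%), which says only that such barcodes were found. Their median depths were 2840 and 1328 UMIs. These barcodes enter no comparison of the report.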

How the results depend on the processing

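No paired analysis was possible because each group has 1 library and the groups share only the replicate number 1. The share in Ctrl of 7.86% became 5.10% with a floor of 2000 UMIs, 11.8% with a floor of 10000, 5.73% with at least 2 Gata1 UMIs, 4.08% when the rule was applied after thinning, 4.52% without barcodes holding RNA of another type, 5.96% with at least 30 UMIs of Car1, Car2 and Klf1 and 6.33% without barcode sequences found in both libraries. The share in cKO of 2.31% became 3.27%, 0.940%, 1.69% and 1.63% with the floor of 10000, after thinning, with at least 30 UMIs and without shared sequences. The 49 higher genes became 85 (of 7615 genes) after thinning, 78 (of 7272 genes) without shared sequences, 82 with median-of-ratios scaling, 117 with mean proportions, 204 with at least 10 UMIs and 14 with at least 200. The 372 lower genes of 9214 became 990 of 11504 and 113 of 6228 with those 2 minimums and 246 of 6632 in the early range. Ordering by globin share put 60.5% of cKO members in the early range, 16.3% of cKO and 37.6% of Ctrl members in the middle one. Ifitm1 reversed to -0.28 in the late range. The cause was not tested, except that fewer barcodes or genes enter under stricter limits. Of the remaining values for single genes, 954 stayed within their counting interval, 47 of them with the opposite sign. Another 253 moved further, and 33 of these, for 20 genes, took the opposite sign, 21 of them within a range of the stage order. The limit of 30 UMIs and the removal of megakaryocyte-rich members or shared sequences were chosen after seeing the data. With 1 library a group, no result here has a replicate check.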
